A study of Sus scrofa with 180 samples.

Results

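Ubiquitin conjugating enzymes, ubiquitin ligases, deubiquitinases and subunits of the proteasome were followed in the longissimus muscle (LM) and the semimembranosus muscle (SM) of pigs. The members are all symbols in the study's lists of genes overrepresented in LM or in SM that begin with PSMA, PSMB, PSMC, PSMD, UBE2, USP and a digit, FBX, TRIM, CUL and a digit, or RNF, and no symbol at hand began with PSME or UBE3. They were chosen by the contrast between the muscles in these same arrays, so every difference between LM and SM given for a member is a description with no test. The rule found 62 genes with 72 probes, among 3481 genes with 3967 probes that the lists at hand name, and 45 of the probes came from the LM list and 27 from the SM list. The copy of the SM list was cut short at its low end, so members with a weak excess in SM are underrepresented. All 72 probes passed the filter on dim spots.

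The series holds 90 LM and 90 SM samples of the same pigs, each hybridized alone on a one-colour array of the GenmascqChip, a pig skeletal muscle array of 60-base probes. No treatment is described. The pigs were of both sexes and of half-sib families bred by crossing terminal sire lines, were raised on 1 farm, and carried only wild-type alleles at the HAL and RN loci. Both muscles were taken from the carcass shortly after slaughter with a trocar from the superficial region, so each sample is a piece of whole muscle with its vessels, fat and connective tissue, and a change in the share of a cell type cannot be told apart from a change within the fibres.

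Ubiquitin is passed from an activating enzyme to a conjugating enzyme (E2) and then, with the help of a ligase (E3), to a protein. Cullins, F-box proteins, RING finger proteins and TRIM proteins are ligases or parts of them, and deubiquitinases of the USP family take ubiquitin off again. Proteins that carry a ubiquitin chain are unfolded by the regulatory particle of the proteasome and cut inside its core particle, and in skeletal muscle this route is known for the breakdown of myofibrillar proteins during atrophy.

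The muscles never shared a slide or a scan day: LM arrays lay on 21 slides read on 10 days and SM arrays on 14 slides read on 5 days, so muscle and slide cannot be told apart. An older version of the scanner software read 44 LM arrays and no SM array. The median processed signal of an array was 171 to 304 in LM and 105 to 252 in SM. An index of C-rich probes averaged -0.37 in LM (SD 0.34) and 0.38 in SM (SD 0.31), so the muscles also differ along it. It is the mean of 215 probes whose first 15 bases hold at least 8 C, less the mean of 3955 probes that hold at most 2. Of the markers of muscle fibres, ACTA1, MYH1 and MB were higher in SM while TTN, NEB, MYL1, CKM and RYR1 were higher in LM. The mean of this list ran from 2.64 to 4.99 in LM and from 3.42 to 4.60 in SM, over the probes with a value on an array, and no red blood cell marker is named by the lists. All 4 probes of the smooth muscle markers and both probes each for adipocyte, endothelium and fibroblast markers were higher in SM, those for fibroblasts both of COL1A2. The macrophage markers were divided, with 1 probe higher in LM (0.40) and 1 higher in SM (-1.43). All these markers were named by the same lists, so they too were chosen by the contrast. Their part in the differences below was not tested.

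Both muscles came from the same carcasses, but arrays that share a pig label showed little likeness once values were centred on slides. After centring on the mean of each muscle, the profiles of arrays with the same label had a mean correlation of 0.10 across 3575 probes, against -0.00102 for other labels, and an array of the same label was the best match for 4 of 90 labels, while 39 of 90 had a correlation over 0.1. After centring on slides that mean was -0.00239 and the best match was the same label for 3 of 89, with 20 over 0.1. In the study's model the hybridization batch lies within the sire family, and sire family was not used here. Whether centring on slides also takes out likeness within families was not tested. A set of 3 unnamed probes that split the arrays of each muscle into separate groups (correlations among them of 0.97 or more in LM and 0.96 or more in SM) put 43 of 90 labels on the same side in both muscles. These 3 probes were chosen after their values were seen. By contrast 2 other unnamed probes, also picked after their values were seen, put 83 and 86 labels on the same side. Their correlations between the muscles were 0.85 and 0.86. Whether those 2 probes follow the slides was not tested. Whether the labels of 1 muscle are out of order was not tested. Counts over pairs of the same label are therefore not used here.

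Probe sequences are shown for the members on which the results turn: PSMA4, whose probes read the same gene at separate places, PSMC6 and UBE2E1, with the widest excess in LM, and PSMC5, TRIM3, FBXL7, USP21 and USP5, whose values follow the index of C-rich probes. They are printed from the scanner files, and capitals mark the first 15 bases, in which C is counted.
PSMA4 probe 1: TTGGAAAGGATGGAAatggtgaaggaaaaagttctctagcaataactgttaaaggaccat
PSMA4 probe 2: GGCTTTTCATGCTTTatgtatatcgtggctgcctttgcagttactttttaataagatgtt
PSMC6: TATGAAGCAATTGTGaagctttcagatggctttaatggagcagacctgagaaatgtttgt
PSMC5: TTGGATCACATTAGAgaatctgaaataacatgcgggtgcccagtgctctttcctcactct
UBE2E1: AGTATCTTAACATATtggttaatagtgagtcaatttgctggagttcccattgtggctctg
TRIM3: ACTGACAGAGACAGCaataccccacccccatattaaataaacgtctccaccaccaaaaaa
FBXL7: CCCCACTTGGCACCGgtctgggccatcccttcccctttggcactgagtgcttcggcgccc
USP21: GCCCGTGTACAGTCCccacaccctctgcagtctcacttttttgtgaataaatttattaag
USP5: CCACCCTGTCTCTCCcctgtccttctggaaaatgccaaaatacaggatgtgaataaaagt

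Levels are log2 processed signals relative to the median of their array. They compare the arrays of 1 probe and not different probes. The difference is the mean of LM minus the mean of SM with its standard error (SE) from limma.

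Proteasome, conjugating enzymes, ligases and deubiquitinases each held probes higher in LM and probes higher in SM. Of the 72 probes, 45 were higher in LM and 27 in SM, with a median difference of 0.26. The list that names a probe fixes this side, and the lists at hand hold 1968 probes for LM and 1999 for SM. Across all 10987 probes kept, which were not chosen by the contrast, 43.7% were higher in LM and the median difference was -0.07. The fit called 83.5% of all probes at an adjusted p of 0.05 or less, 35.7% higher in LM and 47.7% higher in SM, so a called probe is common on these arrays. The proteasome had 8 probes higher in LM and 4 in SM (median 0.33), the conjugating enzymes 5 and 3 (median 0.28) and the deubiquitinases 10 and 4 (median 0.22). Among ligases the families went apart. All 10 RNF probes (median 0.46) and all 3 cullin probes (median 0.71) were higher in LM. F-box proteins had 4 probes higher in LM and 10 in SM (median -0.39), and TRIM proteins had 5 and 6 (median -0.39). Under quantile normalization, which moved the median of all probes to -0.15, 38 of the 72 probes were higher in LM, and 8 of the 10 RNF probes. With normexp background correction, which moved that median to -0.11, there were 39 of 72 and 9 of the 10, and once the index was a covariate 44 of 72 and 8 of the 10. The deubiquitinases were divided 8 to 6 under quantile normalization and under normexp, and the proteasome 7 to 5, while the conjugating enzymes kept 5 to 3. The median of the TRIM probes was -0.01 once the index was a covariate. The ranges of LM and SM did not overlap for 1 member, UBE2E1, and for 2.08% of all probes.

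**Figure D1:**
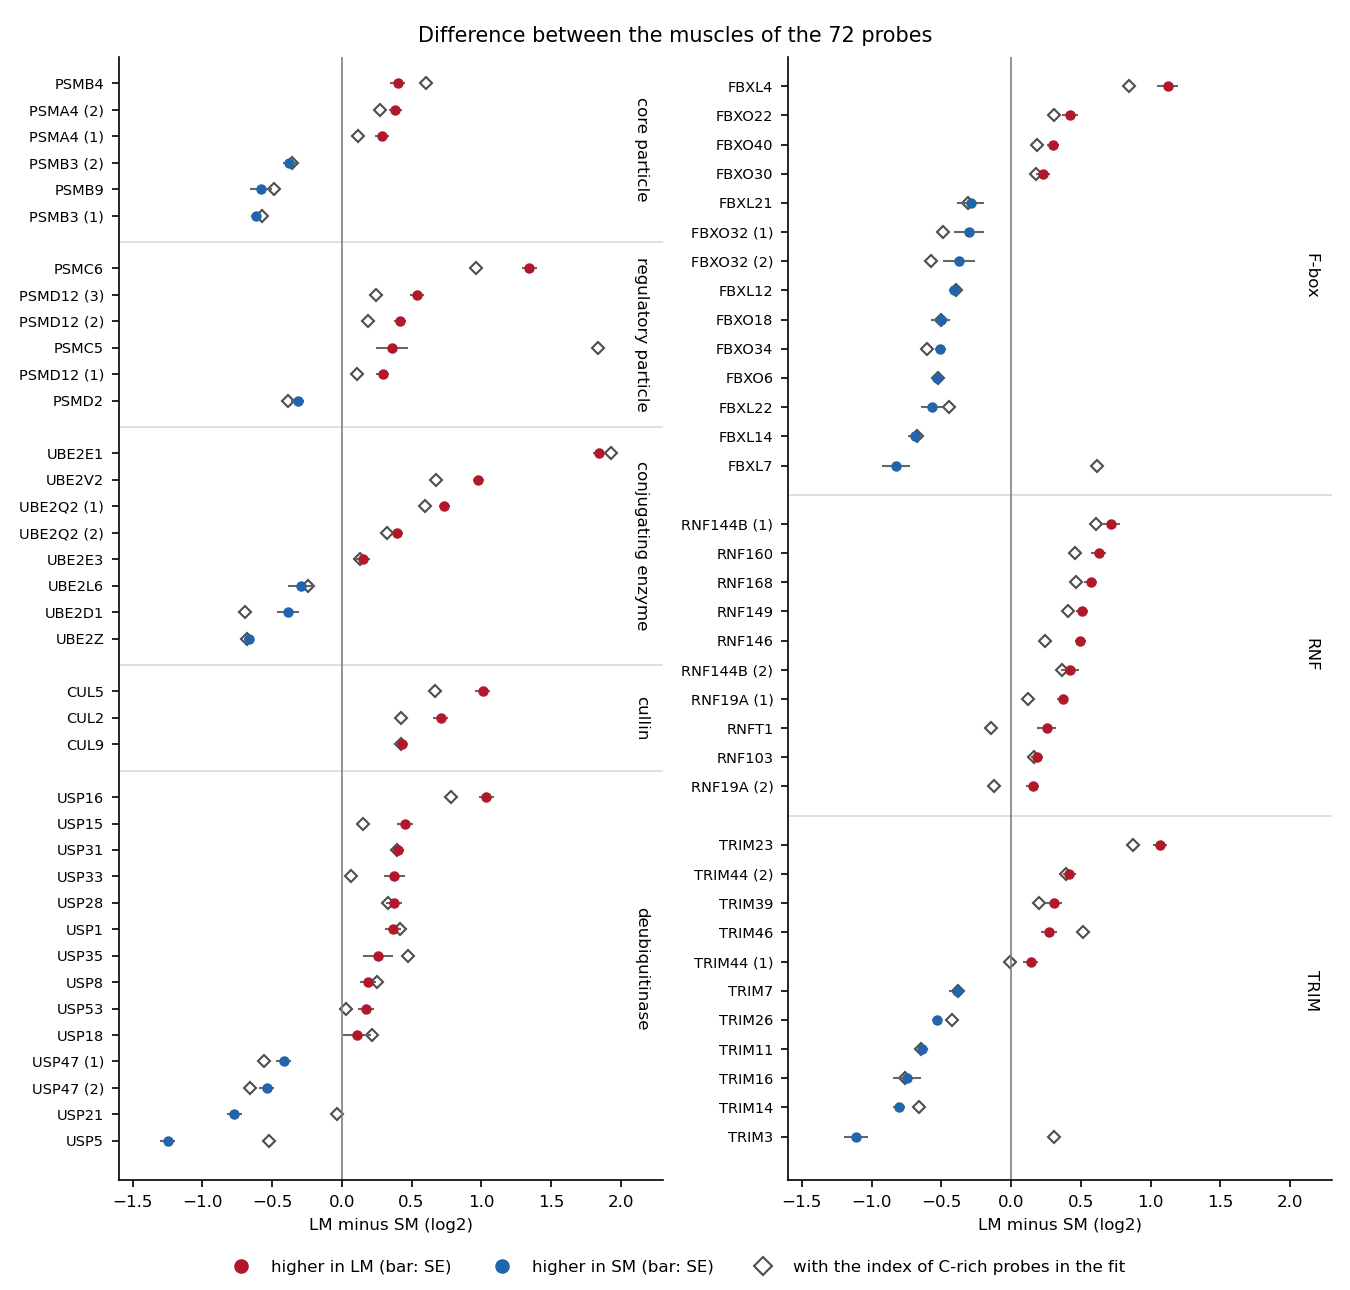
Difference between the muscles (x axis, log2 LM minus SM) of each of the 72 member probes, grouped by class, with bars for the standard error. Open diamonds give the value with the index of C-rich probes in the fit, and they lie far from the filled points for PSMC5, FBXL7, TRIM3, USP21 and USP5.

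Subunits of the core particle were divided between the muscles. PSMA4, a subunit of the outer ring, ranged from 1.89 to 3.49 in LM (median 2.70) and from 1.69 to 3.13 in SM (median 2.44). Its arrays overlapped widely, and the mean was 0.29 higher in LM by its first probe (SE 0.05, 1.22-fold) and 0.38 by its second. PSMB3, of the inner ring, ranged from 0.65 to 1.48 in LM (median 1.08) and from 1.08 to 2.25 in SM (median 1.70). No LM array reached the SM median by this first probe, and the difference was -0.62 (SE 0.03), which is 1.53-fold higher in SM. The second probe of PSMB3 gave a smaller difference of -0.38. PSMB4, another subunit of the inner ring, was near the limit of detection: 32 of 90 SM spots and 4 of 90 LM spots were not well above background. The arrays that remained ranged from -3.90 to -2.06 in LM (median -2.88) and from -3.92 to -2.12 in SM (median -3.30). Its difference of 0.40 (SE 0.05) became -0.01 under quantile normalization and -0.05 with normexp. PSMB9, the interferon-inducible catalytic subunit of the immunoproteasome, ranged from -1.10 to 2.13 in LM (median -0.49) and from -0.62 to 2.01 in SM (median 0.12). A few arrays of each muscle stood far above the rest. Removal of values over 3 SD from the mean left 87 arrays in each muscle, and the range and counts leave out the removed ones. Of these, M19 and M96 in LM and 920 in SM were high for TAP1, another interferon-responsive gene (slide-centred 1.95, 1.35 and 1.35). The mean was 1.49-fold higher in SM (difference -0.58, SE 0.08), and 10 LM arrays lay above the SM median.

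Subunits of the regulatory particle were higher in LM with the exception of PSMD2. PSMC6, an ATPase of the base, ranged from 1.98 to 3.25 in LM (median 2.68) and from 0.02 to 2.39 in SM (median 1.42). No SM array reached the LM median although the ranges met, and the mean was 2.54-fold higher in LM (difference 1.35, SE 0.06). PSMC5, another ATPase of the base, ranged from -1.89 to 2.69 in LM (median 0.62) and from -0.87 to 1.36 in SM (median 0.36). Its LM values were the most scattered of all members (SD 0.99, against 0.49 in SM), and 14 LM spots were not uniform. The difference of 0.36 (SE 0.12) became 1.84 with the index of C-rich probes in the fit, and within slides the probe followed that index with a correlation of 0.72 in LM and 0.77 in SM. PSMD2, the large scaffold subunit of the base, ranged from -1.01 to 0.77 in LM (median -0.26) and from -0.55 to 0.74 in SM (median 0.08), with a difference of -0.32 (SE 0.05). PSMD12, a subunit of the lid, ranged from 1.40 to 2.76 in LM (median 1.88) and from 0.92 to 2.37 in SM (median 1.62). It was 1.22-fold higher in LM by its first probe (difference 0.29, SE 0.04), with 15 SM arrays above the LM median.

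**Figure D2:**
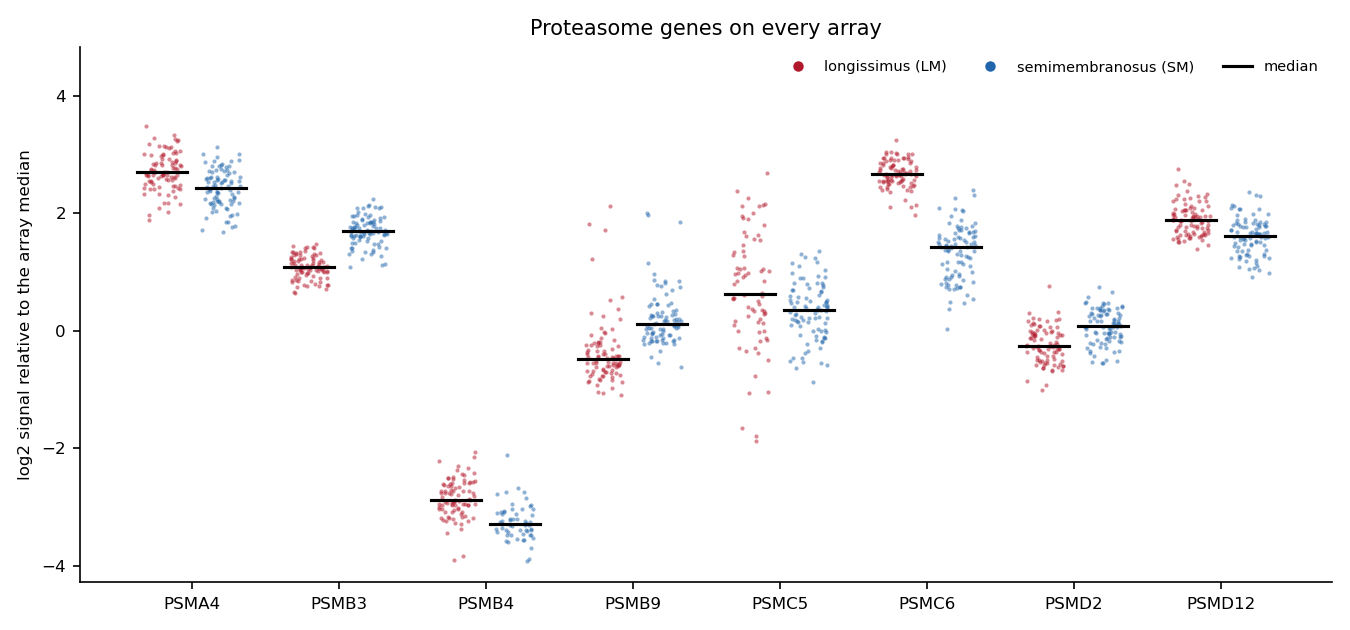
Level of the 8 proteasome genes on every array with a value kept (y axis, log2 signal relative to the array median), LM in red and SM in blue, with a line at the median. PSMC6, with 7 arrays of each muscle inside the range of the other, is higher in LM and PSMB3, with 46 LM and 17 SM arrays inside, is higher in SM, and the LM values of PSMC5 spread from -1.89 to 2.69.

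Conjugating enzymes held the widest gap between the muscles. UBE2E1, an E2 that works with many ligases, ranged from 1.75 to 2.84 in LM (median 2.21) and from -0.51 to 1.71 in SM (median 0.36). Every LM array lay above every SM array, and the mean was 3.59-fold higher in LM (difference 1.84, SE 0.05). The 12 alternatives gave 1.74 to 1.93. UBE2V2, an E2 variant without a catalytic cysteine that acts as partner of another E2, ranged from 2.96 to 3.55 in LM (median 3.27) and from 1.32 to 3.00 in SM (median 2.36). The ranges met only at their ends, with a difference of 0.98 (SE 0.04), and its SD was 0.15 in LM and 0.37 in SM. UBE2Q2 ranged from 1.32 to 2.48 in LM (median 1.91) and from 0.31 to 1.70 in SM (median 1.20) by its first probe, a difference of 0.73 (SE 0.04). No SM array of UBE2Q2 reached the LM median. UBE2E3, of the same subfamily as UBE2E1, differed little: it ranged from 3.63 to 5.49 in LM (median 4.79) and from 3.61 to 5.24 in SM (median 4.63), a difference of 0.15 (SE 0.05).

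Conjugating enzymes that were higher in SM included UBE2Z, which is charged by the activating enzyme UBA6. It ranged from -0.09 to 1.11 in LM (median 0.49) and from 0.71 to 1.95 in SM (median 1.11). No LM array of UBE2Z reached the SM median, and the difference was -0.67 (SE 0.04). UBE2D1, a broadly acting E2, had overlapping ranges of 0.22 to 3.04 in LM (median 1.53) and 0.96 to 2.92 in SM (median 1.84), a difference of -0.39 (SE 0.08). UBE2L6, the E2 that attaches the ubiquitin-like protein ISG15, ranged from -1.63 to 1.73 in LM (median -0.28) and from -1.43 to 1.56 in SM (median 0.11). Its difference of -0.29 (SE 0.09) was small beside its SDs of 0.62 and 0.63.

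Cullins are the scaffolds of multi-subunit ligases. CUL5 ranged from 0.27 to 1.26 in LM (median 0.82) and from -1.59 to 0.76 in SM (median -0.25). No SM array reached the LM median, and the mean was 2.01-fold higher in LM (difference 1.01, SE 0.05). CUL2, which like CUL5 binds its substrate receptors through elongins, ranged from -2.64 to -0.52 in LM (median -1.75) and from -3.49 to -1.38 in SM (median -2.43), a difference of 0.71 (SE 0.05). CUL9 was dim, with ranges of -3.43 to -2.14 in LM (median -2.87) and -3.88 to -2.25 in SM (median -3.26). Its difference of 0.43 (SE 0.05) fell to 0.04 under quantile normalization and with normexp, and 71.6% of its variance in LM lay between slides. The probe of TCEB1, elongin C, had one of the widest excesses in LM among the other pathway genes (difference 1.57, SE 0.04), whereas the probes of TCEB2, elongin B, were higher in SM (-1.37, SE 0.05, and -0.26, SE 0.08).

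**Figure D3:**
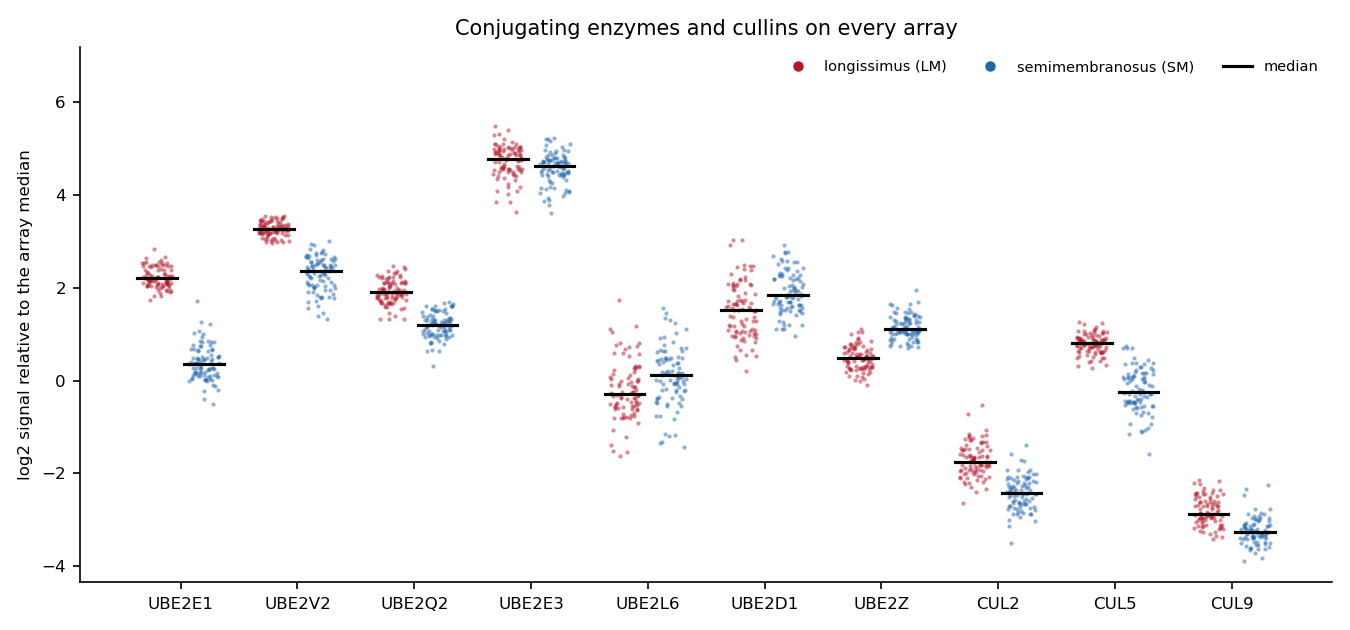
Level of the 7 conjugating enzymes and 3 cullins on every array with a value kept (y axis, log2 signal relative to the array median), LM in red and SM in blue, with a line at the median. UBE2E1 is the gene whose clouds do not touch, and UBE2V2 and CUL5 scatter more in SM than in LM.

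F-box proteins bring substrates to cullin ligases. FBXL4, a mitochondrial member, ranged from -1.20 to 1.18 in LM (median 0.04) and from -2.39 to 0.12 in SM (median -1.02). A single SM array lay above the LM median, and the mean was 2.18-fold higher in LM (difference 1.12, SE 0.07). FBXO22 ranged from -1.82 to -0.35 in LM (median -1.21) and from -2.45 to -0.29 in SM (median -1.66), and FBXO40, a muscle-restricted protein that targets the insulin receptor substrate IRS1, from 4.298 to 5.70 in LM (median 5.23) and from 4.17 to 5.49 in SM (median 4.88). Both overlapped widely, with differences of 0.42 (SE 0.06) and 0.30 (SE 0.04).

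Among F-box members higher in SM, FBXL7 ranged from -0.21 to 2.93 in LM (median 0.79) and from 0.21 to 3.52 in SM (median 1.57). Its probe has 8 C in its first 15 bases, and its difference of -0.82 (SE 0.10) turned to 0.61 with the index of C-rich probes in the fit. FBXL14 ranged from -3.59 to -1.76 in LM (median -2.55) and from -2.59 to -0.85 in SM (median -1.85), and its difference of -0.69 (SE 0.05) remained -0.68 with the index. FBXL22, known from the sarcomere of the heart, ranged from -2.14 to 0.17 in LM (median -0.89) and from -1.41 to 0.85 in SM (median -0.28), and 15 LM arrays lay above the SM median (difference -0.57, SE 0.08). FBXO32, the muscle ligase atrogin-1 that rises in atrophy, ranged from 3.53 to 6.95 in LM (median 5.13) and from 3.71 to 6.81 in SM (median 5.60). The difference of -0.30 (SE 0.11) was small beside its SDs of 0.75 and 0.69, and 28 LM arrays lay above the SM median. The other F-box members, FBXL12, FBXL21, FBXO6, FBXO18, FBXO30 and FBXO34, differed by -0.53 to 0.23.

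RNF members were higher in LM by 0.16 to 0.71, a direction that RNF103 and RNF19A by its second probe lost under quantile normalization. RNF144B, a ligase of the RING-between-RING type, ranged from -0.996 to 0.935 in LM (median 0.21) and from -1.72 to 0.61 in SM (median -0.47), a difference of 0.71 (SE 0.07). RNF160, an older name of the ligase LTN1 that acts on stalled ribosomes, ranged from -2.64 to -1.30 in LM (median -1.90) and from -3.67 to -1.14 in SM (median -2.51), a difference of 0.63 (SE 0.06). RNF168, a ligase of the response to DNA breaks, ranged from -3.32 to -1.73 in LM (median -2.57) and from -3.88 to -2.51 in SM (median -3.06). On 17 SM arrays the spot stayed close to background, and its difference of 0.57 (SE 0.05) was 0.20 under quantile normalization and 0.13 with normexp.

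TRIM members included wide differences in both directions. TRIM23, which carries a GTPase domain beside its ligase domain, ranged from -2.02 to -0.91 in LM (median -1.40) and from -3.58 to -1.76 in SM (median -2.47). No SM array reached the LM median, and the difference was 1.07 (SE 0.05). TRIM44 by its second probe ranged from -0.73 to 0.80 in LM (median 0.07) and from -1.02 to 0.47 in SM (median -0.33), a difference of 0.42 (SE 0.05). TRIM39 overlapped more, with 0.30 (SE 0.06) between a range of -0.74 to 0.93 in LM (median 0.19) and one of -1.03 to 0.85 in SM (median -0.12). TRIM3, known from neurons, ranged from -0.08 to 2.34 in LM (median 0.99) and from 1.01 to 3.57 in SM (median 2.05). Its difference of -1.11 (SE 0.09) became 0.31 with the index of C-rich probes, which it followed within slides at 0.95 in LM and 0.96 in SM. TRIM14, an adaptor of antiviral signalling, ranged from -1.96 to -0.53 in LM (median -1.26) and from -0.86 to 0.08 in SM (median -0.46). No LM array reached the SM median (difference -0.81, SE 0.04), and 86.0% of its variance in LM lay between slides. TRIM16 ranged from -3.76 to -0.26 in LM (median -2.48) and from -3.04 to -0.24 in SM (median -1.72), a difference of -0.75 (SE 0.10).

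Deubiquitinases were higher in LM for 10 of 14 probes, and for 8 of 14 under quantile normalization. USP16, which takes ubiquitin off a histone, ranged from -0.05 to 1.41 in LM (median 0.27) and from -2.01 to 0.36 in SM (median -0.68). A single SM array lay above the LM median, and the mean was 2.05-fold higher in LM (difference 1.04, SE 0.05). USP15 ranged from -2.32 to -1.14 in LM (median -1.73) and from -3.32 to -1.18 in SM (median -2.13), a difference of 0.45 (SE 0.05). USP31 ranged from -2.34 to -1.08 in LM (median -1.71) and from -2.75 to -1.32 in SM (median -2.12), with 8 SM arrays above the LM median (difference 0.40, SE 0.04). USP5, which takes apart unanchored ubiquitin chains, ranged from 2.12 to 3.94 in LM (median 2.87) and from 3.39 to 5.15 in SM (median 4.09). No LM array of USP5 reached the SM median. Its difference of -1.25 (SE 0.06) was the widest of the members higher in SM, its probe has 9 C in its first 15 bases, and the difference became -0.52 with the index of C-rich probes. USP21 ranged from -0.08 to 1.21 in LM (median 0.50) and from 0.42 to 2.28 in SM (median 1.24), a difference of -0.77 (SE 0.05) that became -0.03 with the index. USP47 by its second probe ranged from 0.23 to 2.07 in LM (median 1.30) and from 0.89 to 2.67 in SM (median 1.85), and it was higher in SM by both probes (-0.42, SE 0.05, and -0.54, SE 0.05). USP18, which removes ISG15, was dim: it ranged from -3.77 to -0.81 in LM (median -2.55) and from -3.98 to -0.74 in SM (median -2.73), and 24 SM spots were not well above background. Its difference of 0.11 (SE 0.10) was the smallest of the members and turned to -0.21 under quantile normalization.

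At the ends of the lists, the members with the smallest excess in LM were USP18 (0.11), TRIM44 by its first probe (0.14) and UBE2E3 (0.15). Those with the smallest excess in SM were FBXL21 (-0.29), UBE2L6 (-0.29) and FBXO32 (-0.30), where the copy of the SM list ends. Probes outside the lists carry no gene name here, so none can be named just beyond the threshold.

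Probes of the same gene gave a check that the rule did not use. Deviations within a muscle, with slide as a fixed factor, were compared by regressing every probe kept on the member, and a pair was called at an adjusted p of 0.05 or less over all probes in both orders. Shares of all probes called with a member, here and below, come from the fit on that member alone, a looser rule. Pairs of a member with a gene that is not a member were also called on that fit alone. All 11 pairs of probes from 9 genes were called in each muscle, with partial correlations of 0.66 to 1.00 in LM and 0.71 to 0.99 in SM (largest permutation p 1e-05, the smallest that 100000 permutations can give). For the 19 probes of these genes, 14.8% of all probes were called in LM and 20.1% in SM. The probes of a pair share no run of more than 6 bases. The probes of FBXO32 followed each other most closely (0.997 in LM and 0.992 in SM), and those of PSMB3 least in LM (0.66, against 0.77 in SM). All probes of a gene came from the same list, which fixes the side of their differences. These lay 0.07 to 0.34 apart, with UBE2Q2 (0.73 and 0.40) the widest and FBXO32 (-0.30 and -0.37) the narrowest.

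Several subunits of the proteasome varied together over LM arrays. Of 28 pairs among the 8 genes, 12 were called in LM, all positive, where 19.5% of all probes were called with these members. In SM 6 pairs were called (21.4%), where 20.8% of all probes were called by the looser rule of 1 order. Without PSMB9 and PSMC5, left out after it was seen that they had no called pair in LM, the counts were 12 of 15 in LM and 5 of 15 in SM, beside 22.9% and 22.3% of all probes. PSMB4, which is in some of these pairs, had a value on only 57 SM arrays, and 0 of 10986 probes were called with it there. With failed spots kept, 11 of the 28 pairs were called in LM and 10 in SM, and of the 15 pairs 11 and 8. The gap between these counts therefore depends on that choice. In LM, PSMA4 had partial correlations of 0.80 with PSMC6, 0.71 with PSMD12 and 0.69 with PSMB3 (adjusted p by limma at most 3.69e-08), and Spearman correlations of slide-centred values were 0.81, 0.69 and 0.69. Leaving out the 2 arrays farthest from the median, the correlations were 0.79, 0.69 and 0.66. In SM these partial correlations were 0.45, 0.55 and 0.30, and the last was called in 1 order and not in the other (adjusted p 0.0521 and 0.0458). In LM these genes also followed the first principal component of all probes, which holds 12.8% of the variance, with correlations of 0.73 for PSMD12, 0.55 for PSMA4, 0.51 for PSMD2, 0.50 for PSMC6 and 0.45 for PSMB3. Its part was not tested. Among all probes, PSMC6 ranked 5th in its correlation with PSMA4 in LM and 176th in SM. PSMB9 was called with no other proteasome gene in either muscle, its partial correlations lying between -0.18 and 0.26. The negative pair in SM, PSMC5 with PSMC6 (-0.40), was 0.02 with the index of C-rich probes in the fit.

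**Figure D4:**
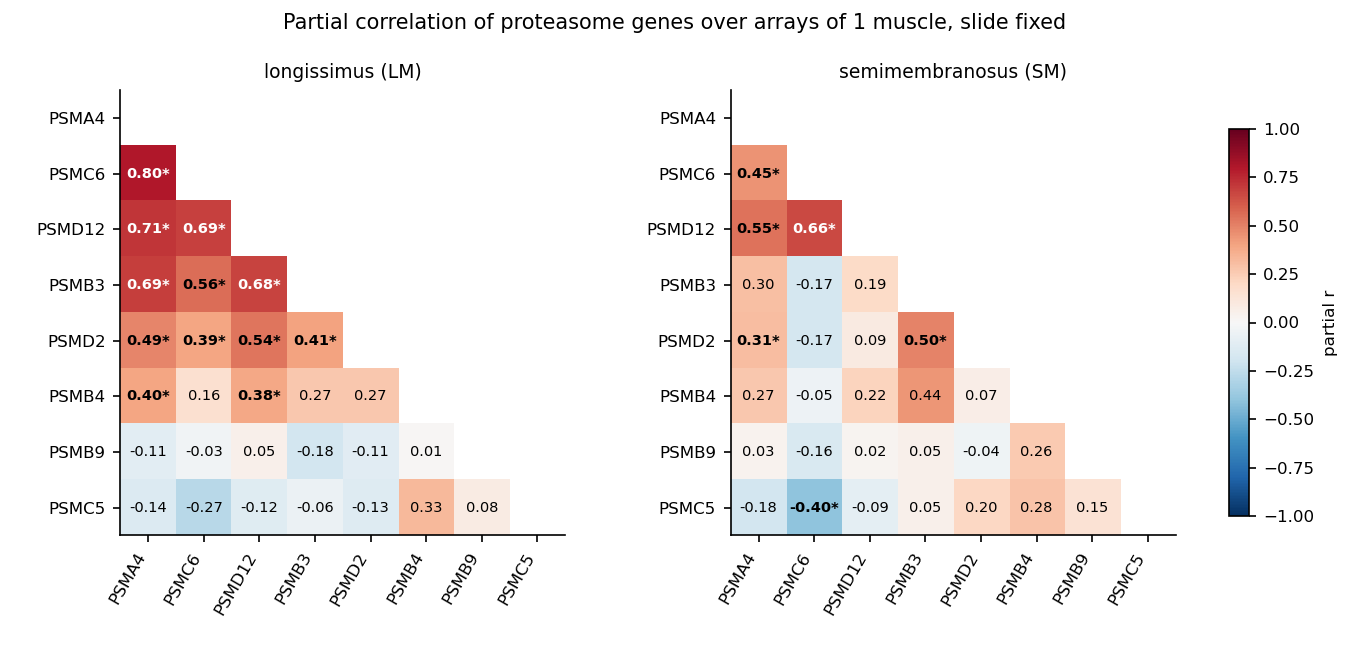
Partial correlation of each pair of proteasome genes over the arrays of LM (left) and SM (right), with slide as a fixed factor, on a colour scale from -1 to 1. Asterisks and bold type mark pairs called in both orders, and the block of PSMA4, PSMC6, PSMD12, PSMB3 and PSMD2 is filled in LM, where its lowest value is 0.39.

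The difference between the muscles was tested for the 28 proteasome pairs in a fit of both muscles with a slope for each. Across the 8 members, 4.34% of all probes had slopes that differed. Called in both orders were PSMB3 with PSMC6, PSMB3 with PSMD12 and PSMC6 with PSMD12. The slope of PSMC6 on PSMB3 was 0.97 greater in LM (SE 0.30, adjusted p 0.0377 by limma), where the partial correlation was 0.56, against -0.17 in SM. The slope of PSMD12 on PSMB3 was 0.69 greater in LM (SE 0.21), with partial correlations of 0.68 and 0.19. For PSMC6 and PSMD12 the partial correlations were 0.69 and 0.66, and the slope of PSMD12 on PSMC6 was 0.49 greater in LM (SE 0.14), where PSMC6 also varied less (SD 0.23, against 0.47 in SM). With PSMC6 alone 13.6% of all probes had a slope that differed between the muscles, with the first probe of PSMB3 4.71%, and with the first of PSMD12 7.87%. With the second probe of PSMB3, measured on 174 arrays, 0 of 10986 probes were called, so neither slope on PSMB3 was called by that probe. A further 4 pairs were called in 1 order only.

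In SM, PSMC6 went with members of other classes. Its partial correlation was 0.92 with UBE2V2, 0.82 with USP16 and 0.78 with CUL5, and these genes had 0.86 to 0.87 among themselves, so all 6 pairs were called, where 46.6% of all probes were called with these members. RNF146, a ligase outside the group, had 0.80 with PSMC6, 0.79 with UBE2V2 and 0.75 with USP16 in SM. In LM the 6 pairs had 0.19 to 0.44 and 2 were called, beside 16.2% of all probes. This group was picked after its values were seen. The slope of UBE2V2 on PSMC6 was 0.42 smaller in LM (difference -0.42, SE 0.09, adjusted p 0.000398 by limma) and that of USP16 0.40 smaller (difference -0.40, SE 0.14, adjusted p 0.0353), while that of CUL5 was not called (-0.34, SE 0.15, adjusted p 0.114). Within slides the SM values of these 4 genes also followed the first principal component of all probes, which holds 12.7% of the variance, with correlations of 0.71 to 0.80, and the index of C-rich probes with -0.46 to -0.55. With that index in the fit the partial correlations of PSMC6 were 0.88, 0.76 and 0.70. PSMC6 was also called in SM with 8 of 14 probes of muscle fibre markers, 4 of them positive, close to the 49.7% of all probes called with it there (33.2% in LM), and its correlation with the array median was 0.45. The part of these in the result was not tested.

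PSMC5, TRIM3, FBXL7, USP21 and USP5 formed the other tight group, with partial correlations of 0.31 to 0.84 in LM (8 of 10 pairs called, beside 13.5% of all probes) and 0.55 to 0.92 in SM (10 of 10, beside 28.2%). This group, too, was picked after its values were seen. All 5 followed the index of C-rich probes within slides, with correlations of 0.59 to 0.95 in LM and 0.77 to 0.96 in SM, and FBXL7 and USP5 are themselves among the C-rich probes. With the index in the fit, the partial correlation of PSMC5 with TRIM3 went from 0.78 to 0.12 in LM and from 0.74 to -0.03 in SM. That of PSMC5 with FBXL7 turned from 0.36 to -0.57 in LM and from 0.55 to -0.46 in SM, and that of PSMC5 with USP21 went from 0.49 to -0.33 in LM and from 0.62 to -0.12 in SM.

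The interferon-responsive members were the other set with close ties. PSMB9, UBE2L6 and USP18 are all induced by interferon. In LM, UBE2L6 had partial correlations of 0.58 with USP18 and 0.50 with PSMB9, both called. PSMB9 with USP18 (0.43) was called in 1 order and not in the other (adjusted p 0.0338 and 0.0576). In SM all 3 pairs were called, at 0.67, 0.43 and 0.60. Of all probes, 1.31% were called with PSMB9, 1.70% with UBE2L6 and 0.601% with USP18 in LM. The shares in SM were 4.96%, 9.18% and 1.56%. Against 7 further interferon-responsive genes (IFIT1, IRF7, ISG15, MX1, MX2, OAS1 and TAP1), 18 of 21 pairs were called in LM and 15 of 21 in SM, all positive, with a largest permutation p of 1e-04 and 0.00103. These pairs were called on the fit on the member alone, without the other order. IRF7 was called with no member in either muscle, and MX2 with all of them in LM and with none in SM. TAP1, the peptide transporter whose gene neighbours PSMB9 in mammals, had a partial correlation with PSMB9 of 0.86 in LM and 0.83 in SM, where it ranked 2nd and 1st of all probes. Spearman correlations were 0.71 and 0.77, and without the 2 arrays farthest from the median the correlations were 0.78 in both muscles. MX1, an antiviral GTPase, had 0.69 with USP18 in LM and 0.80 in SM. None of the slopes of these pairs was called as different between the muscles. Of the 2 macrophage marker probes, C1QC was called with PSMB9 in each muscle (0.55 in LM and 0.48 in SM) and with UBE2L6 and USP18 in LM (0.51 and 0.45), and CD68 with none of these. The mean of both macrophage marker probes ran from -2.76 to -0.82 in LM and from -1.99 to 1.07 in SM. In SM each of these members was also called, negatively, with 1 of 14 fibre marker probes. It was a probe of ACTA1 for USP18 (-0.50) and UBE2L6 (-0.33), and a probe of TTN for PSMB9 (-0.35). The other ACTA1 probe was not called with USP18 (-0.44) or UBE2L6 (-0.26). UBE2L6 was also called with 1 of 4 smooth muscle marker probes, that of MYH11 (-0.35). The part of these cell types was not tested.

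**Figure D5:**
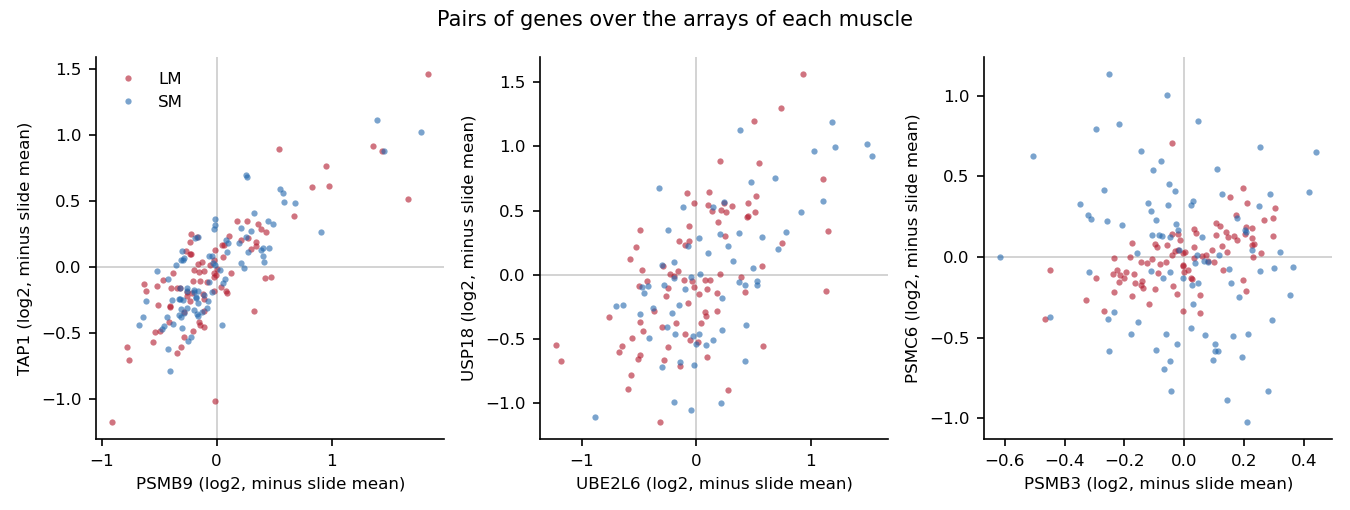
Slide-centred log2 values of PSMB9 against TAP1, UBE2L6 against USP18 and PSMB3 against PSMC6, with 1 point for each array of LM (red) and SM (blue) that has both values. In the first panels both muscles form 1 rising cloud, and in the last the LM points rise while the SM points do not.

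Over all 1891 pairs of the 62 genes (1 probe for each), 162 pairs (8.57%) were called in LM and 361 (19.1%) in SM. Of all probes, 8.81% and 17.7% were called with the same members. These shares count 1 order while a pair of members needs both, so how the rates compare cannot be read from them. The proteasome stood at 42.9% in LM. Conjugating enzymes with proteasome genes had 25.0% in LM and 28.6% in SM, and ligases with each other 6.60% and 14.4%. In both muscles 80 pairs were called, 75 of them with the same sign. Outside the groups above, the closest pairs in LM were USP1 with USP8, UBE2D1 with USP28 and FBXO32 with PSMD12 (each 0.68), then RNF146 with PSMA4 (0.64) and with UBE2Q2 (0.61).

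Of the 62 genes, FBXO32 was called with 9 others in LM and 8 in SM, beside 25.3% and 5.51% of all probes. Pairs of members had to pass in both orders while the shares of all probes count 1 order, so the LM rates cannot be compared. In SM the share of members was the larger one even under that stricter rule. In LM it had positive partial correlations with PSMD12 (0.68), PSMC6 (0.51), PSMA4 (0.46), PSMD2 (0.45), PSMB3 (0.44) and FBXO30 (0.34), and negative ones with UBE2E3 (-0.59), FBXL22 (-0.46) and FBXL7 (-0.37). In SM the positive partners were TRIM11 (0.45), PSMA4 (0.41), UBE2Z (0.38), PSMD2 (0.35) and PSMD12 (0.34), and the negative ones FBXL22 (-0.39), USP47 (-0.39) and UBE2E3 (-0.38). PSMD12, PSMA4, PSMD2, FBXL22 and UBE2E3 were partners with the same sign in both muscles. FBXO32 was also called, negatively, with 5 of 14 muscle fibre marker probes and 2 of 4 smooth muscle marker probes in LM, and their part was not tested.

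The correlation of LM with SM over pig labels, on values centred on the slide, was called for none of the members and for 0% of 10942 probes, at a permutation test with 100000 permutations and adjustment over all probes (579 probes had an unadjusted p under 0.05). Without that centring 146 probes were called, 145 of them positive, and again no member. For the members it ranged from -0.25 (TRIM16) to 0.18 (PSMA4 by its second probe), and 36 of 72 were positive. The lowest after TRIM16 were TRIM11 (-0.22), USP18 (-0.20), RNF144B by its second probe (-0.17) and USP28 (-0.15), and the highest below PSMA4 were RNF149 (0.18), USP1 (0.17), FBXO40 (0.17) and FBXL14 (0.16). Spearman correlations of these 10 probes lay between -0.25 and 0.19, and the lowest adjusted p was 0.885. Since arrays of the same label showed little likeness, nothing is read from these values.

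Other genes of the pathway named in the lists were also chosen by the contrast and are described. Of 96 such genes 59 were named, with 66 probes, of which 40 were higher in LM and 26 in SM (median difference 0.34). HECT and other ligases had 15 of 22 probes higher in LM, among them UBR3 (0.82, SE 0.04) and the probes of WWP1 (0.45 to 0.83), with MUL1, a ligase of the mitochondrial outer membrane, among those higher in SM (-0.81, SE 0.04). WWP2, also higher in SM (-1.32, SE 0.11), turned to 0.27 once the index was a covariate. Adaptors and regulators of cullin ligases were divided, 16 to 14. The probes of COPS2 and COPS5, subunits of the complex that removes NEDD8 from cullins, and of DCUN1D1 and DCUN1D2, which help to add it, were higher in LM, as was NAE1, a subunit of the enzyme that activates NEDD8 (1.32, SE 0.04). COPS4, of the same complex as COPS2 and COPS5, was higher in SM (-0.33, SE 0.05), and 0.03 once the index was a covariate. Of the other deubiquitinases 5 of 6 probes were higher in LM, UCHL3 (0.64, SE 0.03) and UCHL5 (0.58, SE 0.04) among them. The assembly factor PSMG2 was 0.58 (SE 0.02) higher in LM and was called with PSMA4, PSMB3, PSMC6 and PSMD12 over LM arrays (0.39 to 0.52). With POMP, the other assembly factor named, no pair was called in LM. Of the 16 pairs of these factors with proteasome genes, 4 were called in LM, all positive, and 7 in SM, where POMP with PSMB3 (-0.37) and PSMG2 with PSMC5 (-0.32) were negative, beside the 19.5% and 20.8% of all probes given above.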

How the data were processed

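Per the file headers, the authors scanned one-colour arrays and deposited linear processed signal intensities from Agilent Feature Extraction, background-subtracted by that software. The deposited table of 6903 probes holds the natural log of the processed signal less a constant for each array, and was used as an alternative. Columns of the authors' comparisons were not used beyond the pairing of probe and symbol. The members and lists were chosen with earlier results of these data known, and so was the index of C-rich probes.

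From the intensities of 15198 probes, saturated or uneven spots and spots near background were left out, as were probes failing on more than 50% of the arrays of a muscle. The log2 signal was centred on the median of its array, and 7460 values over 3 SD from their mean were removed, which left 10987 probes. LM and SM were compared with limma 3.58.1 in R 4.3.3 and Benjamini-Hochberg adjustment. Partial correlations within a muscle came from limma with slide as a fixed factor, and permutation tests were two-sided with 100000 permutations (Python 3.11.15, NumPy 2.4.6, SciPy 1.17.1). For a gene with several probes, the one with the fewest failed spots was used in pairs. Values are given in full for all proteasome, conjugating enzyme and cullin genes, for the 3 probes of each other family with the largest difference in each direction, and for FBXO32. Genes with several probes are mostly given by 1 probe, with the differences of some of the others. The 5 highest and 5 lowest correlations of LM with SM are given. Other named members are partners chosen after their values were seen. Taking the mean over the probes of a gene was also tried. Samples of 1 muscle came from separate pigs. The number of arrays limits the precision. The scripts were tested on simulated data. Sex, slaughter batch and carcass weight, terms of the study's model, were not used here. Alternatives were the 75th percentile, quantile normalization, normexp (offset 50), failed spots kept, no filter, outlying values kept, a block for the pig label, slide as a random block, the index of C-rich probes and the deposited table. The use of 1 software version, the test of slopes between the muscles and the correlations without the 2 farthest arrays were added after seeing the data.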

Additional observations from a re-analysis of the deposited data

Results flagged for a closer look

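The slopes of pairs that differed between the muscles are given as values. The slope in LM minus the slope in SM was 0.97 for PSMC6 on PSMB3 (SE 0.30, adjusted p 0.0377 by limma with Benjamini-Hochberg adjustment), beside 4.71% of all probes called with PSMB3. It was 0.69 for PSMD12 on PSMB3 (SE 0.21, adjusted p 0.0406 by limma). It was 0.49 for PSMD12 on PSMC6 (SE 0.14, adjusted p 0.0109 by limma), where 13.6% of all probes were called. It was -0.42 for UBE2V2 on PSMC6 (SE 0.09, adjusted p 0.000398 by limma) and -0.40 for USP16 on PSMC6 (SE 0.14, adjusted p 0.0353 by limma), a group picked after its values were seen. Both slopes on PSMB3 are by its first probe, and with its second probe 0 of 10986 probes were called.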

How the results depend on the processing

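Of 864 differences of members under 12 alternatives, 25 changed sign, in 13 probes, and 59 probes kept their sign in all 12. Under quantile normalization the signs turned for FBXO30 (-0.22), RNF103 (-0.29), RNF19A by its second probe (-0.061), TRIM46 (-0.015), PSMB4 (-0.014), USP8 (-0.022) and USP18 (-0.21). Under normexp they turned for FBXO30 (-0.058), RNF103 (-0.090), TRIM46 (-0.047), PSMB4 (-0.054), USP8 (-0.033) and USP18 (-0.11). With the index of C-rich probes they turned for FBXL7 (0.61), TRIM3 (0.31), RNF19A by its second probe (-0.12), RNFT1 (-0.14) and TRIM44 by its first probe (-0.00898). With the replicate block and the index together they turned for FBXL7 (0.50), TRIM3 (0.27), UBE2L6 (0.037), USP21 (0.031), RNF19A by its second probe (-0.19), RNFT1 (-0.15) and TRIM44 by its first probe (-0.016). The replicate block alone turned no sign, and it called 9159 probes against 9169 without it. The cause of these changes was not tested. With failed spots kept, 10 proteasome pairs were called in SM rather than 6, and 11 in LM rather than 12. Of all called probes, 36.4% were higher in LM under quantile normalization and 37.4% under normexp. Dim probes such as PSMB4 and USP18 were measured on fewer arrays, which limits their values.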
